A study of Homo sapiens with 3 samples.

Results

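Collagen chain genes were examined in 3 stable lines made from PANC-1, a long-established line of human pancreatic ductal carcinoma cells. They were taken as every gene whose platform symbol is COL, a number, A and a number with nothing after it, and which had a probe set with 1 gene symbol. This gave 43 genes of 19775 and 112 probe sets of the 54613 on the array. The RefSeq gene table lists 44 such genes, and COL17A1 was not analysed here because no probe set was named for it. The control line carries the empty MSCV retroviral vector, and the other lines express wild-type JMJD3 or a mutant JMJD3, on the same PANC-1 background and the labels name no other treatment. The labels give neither the mutation nor whether a line is a clone or a pool. Total RNA of each line was hybridised to 1 Affymetrix array, so there were no replicates, no test was possible and every difference below compares 2 arrays.

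Collagens are trimers of chains whose helical part repeats a glycine-led triplet. Fibrillar collagens form the tensile fibres of stroma, type IV collagens form the sheet of the basement membrane on which epithelia sit, and the remaining classes decorate, anchor or link these structures. In pancreatic ductal carcinoma most interstitial collagen is made by stellate cells and fibroblasts, while the tumour cells also make basement membrane and some fibrillar chains. JMJD3, the product of KDM6B, removes methyl groups from histone H3 and so acts against Polycomb silencing.

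With wild-type JMJD3 the chains of the general basement membrane (COL4A1, COL4A2), the fibrillar chain COL5A1 and the multiplexin COL18A1 read higher than in control. COL4A3 and COL4A4, the chains of a more restricted basement membrane, read lower. With mutant JMJD3 no collagen gene of the 20 over the detection floor in all arrays differed 1.5-fold from control at its brightest probe set. Of all such genes 8.74% were higher and 3.46% lower by that much, a threshold chosen after the values were seen. A second probe set of COL5A1 read 1.60-fold higher with the mutant. COL8A1, under the floor in control, has only a lower bound there. COL5A1 with wild-type JMJD3 was the single collagen gene measured past 2-fold from control, at 1 of its 3 probe sets. Of 19 genes that hydroxylate and fold collagen chains, 4 were higher and 3 lower by 2-fold with wild-type than mutant JMJD3, where 2.61% and 6.2% of all measured genes were, and without shared probe sets 1 was higher and 2 were lower of 13.

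COL4A1 and COL4A2 start head to head, as do COL4A4 and COL4A3, so their start regions are given first. According to the RefSeq promoter table (GRCh38.p14), 126 bases separate the starts of COL4A1 (minus strand) and COL4A2 (plus strand) on chromosome 13, and 418 bases separate those of COL4A4 and COL4A3 on chromosome 2. The whole COL4A1-COL4A2 interval is printed, together with the 250 bases before the starts of COL4A3, COL5A1 and COL18A1, the genes with the largest difference between the wild-type array and another one. Where a gene had several listed starts (COL5A1 and COL18A1), the one with the lowest coordinate was used. Capitals mark matches on either strand to the GC box (GGGCGG), the CCAAT box (CCAAT) and the TATA box (TATAAA), and all sequences are read on the plus strand. The regions are chr13:110307158-110307283, chr2:227164374-227164623, chr9:134641553-134641802 and chr21:45404915-45405164, in the order of the lines.
COL4A1-COL4A2: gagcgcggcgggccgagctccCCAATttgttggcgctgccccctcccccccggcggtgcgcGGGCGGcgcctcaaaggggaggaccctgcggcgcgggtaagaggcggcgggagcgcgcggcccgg
COL4A3: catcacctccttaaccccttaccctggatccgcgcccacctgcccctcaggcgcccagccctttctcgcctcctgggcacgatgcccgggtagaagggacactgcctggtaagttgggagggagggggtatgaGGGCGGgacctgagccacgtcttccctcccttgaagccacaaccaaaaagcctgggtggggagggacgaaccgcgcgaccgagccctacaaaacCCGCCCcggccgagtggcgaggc
COL5A1: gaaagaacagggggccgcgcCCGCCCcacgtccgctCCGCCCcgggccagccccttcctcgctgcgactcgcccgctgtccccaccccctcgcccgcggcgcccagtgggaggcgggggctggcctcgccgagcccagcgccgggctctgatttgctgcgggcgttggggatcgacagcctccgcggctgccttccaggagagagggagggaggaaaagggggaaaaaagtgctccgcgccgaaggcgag
COL18A1: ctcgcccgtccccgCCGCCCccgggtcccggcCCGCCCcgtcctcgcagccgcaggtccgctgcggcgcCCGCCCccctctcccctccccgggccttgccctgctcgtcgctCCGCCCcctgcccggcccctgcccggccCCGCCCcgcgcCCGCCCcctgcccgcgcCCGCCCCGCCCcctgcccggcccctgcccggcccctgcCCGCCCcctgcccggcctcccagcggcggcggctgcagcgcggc

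The COL4A1-COL4A2 interval held 1 CCAAT box, 1 GC box and 20 CG dinucleotides. Of all promoters in the table, 21.1% held a CCAAT box and 34.6% a GC box in the 126 bases before the start. The COL4A3, COL5A1 and COL18A1 windows held 2, 2 and 9 GC boxes, and 42.6% of all promoters held at least 1 in 250 bases. None of the 4 windows held a TATA box, which 10.7% of all 250-base windows and 5.87% of all 126-base windows did. No boxes overlapped except a pair of GC boxes of COL18A1. A match of letters is a description of the sequence and not a bound site.

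The table covered 20 of the 24 collagen genes over the detection floor defined below and 11 of the 19 at or under it, with windows of 300 bases around each start. Taking the richest window of each gene, the median number of CG dinucleotides was 29 in the genes over the floor (from 3 to 46) and 16 in the others (from 1 to 45), against 16 over 27305 genes. COL18A1, COL4A1, COL4A2 and COL15A1 had 45 or 46, while COL10A1, at the floor, had 3. The COL4A1 and COL4A2 windows share most of their bases, so their counts, both in the median, are not separate. The ranges overlapped nearly throughout, as COL8A2 held 45 and was under the floor.

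A probe set was taken as over the floor where its log2 signal exceeded 5.48, the median of all values of the 3 arrays. The probe set with the highest mean stood for its gene. By this measure 24 of the 43 collagen genes (55.8%) were over the floor in at least 1 array, and 65.1% of all genes were. Of these, 20 were over it in all arrays and 4 (COL4A6, COL8A1, COL10A1 and COL16A1) in some. The 19 genes at or under the floor in every array were COL1A2, COL2A1, COL3A1, COL5A2, COL6A3, COL6A5, COL6A6, COL8A2, COL9A1, COL11A1, COL14A1, COL19A1, COL20A1, COL21A1, COL22A1, COL23A1, COL24A1, COL25A1 and COL28A1. They include COL1A2 and COL3A1, the partner chain of type I collagen and the chain of type III collagen that mark stromal fibroblasts. The nearest to the floor from below were COL9A1 (5.45 in each array) and COL5A2 (up to 5.45), and the nearest from above were COL6A2 (5.50 to 5.54) and COL9A2 (5.51 in each array). Of the 45 collagen probe sets over the floor in some array, 21 carried the suffix _s_at or _x_at, called shared below, whose probes match several transcripts of the same or another gene. Over all 112 collagen probe sets, 27.7% were identical across the arrays, against 21.0% of all probe sets, so a difference of 0 does not show equal levels.

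**Figure D1:**
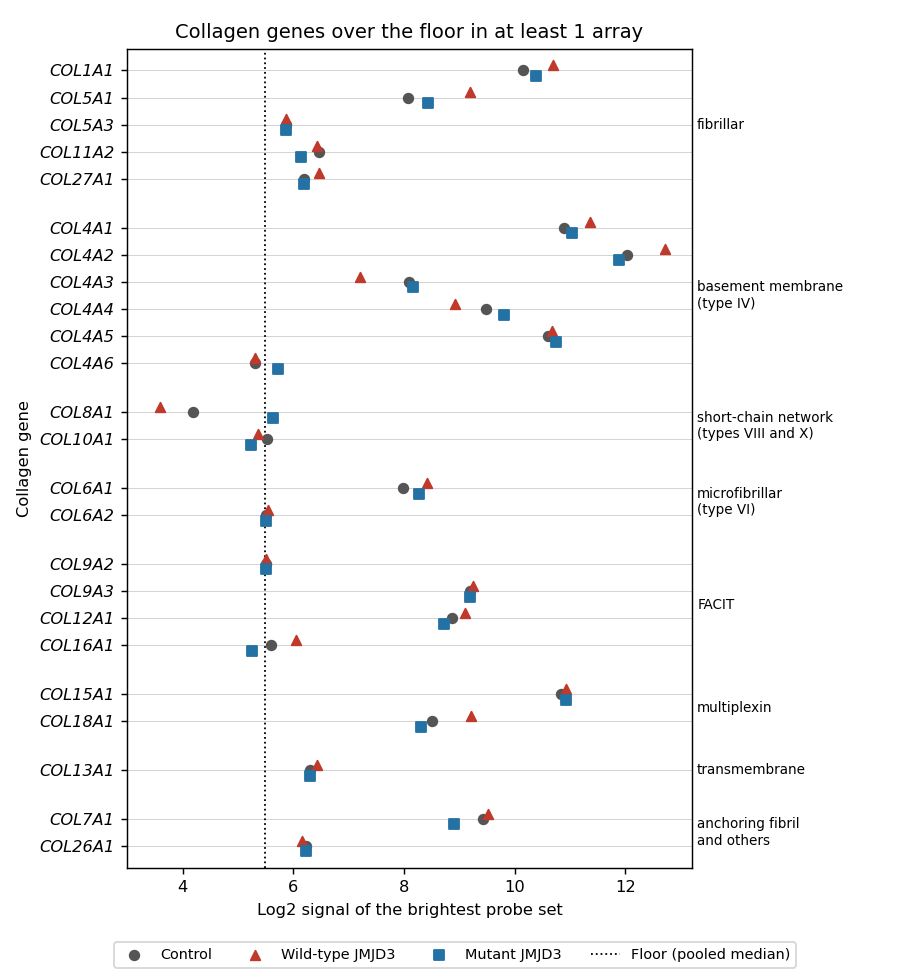
Log2 signal (horizontal axis) of the brightest probe set of each of the 24 collagen genes over the floor in at least 1 array, by class, with a point for each array and the floor at 5.48 as a dotted line. COL5A1, COL4A2 and COL18A1 were highest with wild-type JMJD3 and COL4A3 and COL4A4 lowest, and levels of different genes come from different probes and are not comparable.

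The labelled cell type was set against its markers. KRT7, KRT8, KRT18, KRT19, EPCAM and CLDN4, 6 of 7 epithelial markers, were over the floor in every array, and CDH1, the epithelial cadherin, was under it at 4.62 in each. Of 9 fibroblast and stellate cell markers, 4 were over the floor in control and wild-type JMJD3 and 5 with mutant JMJD3, with summed log2 levels of 43.8, 44.9 and 45.6. The summed level of the epithelial list was 58.6, 62.2 and 59.7, highest with wild-type JMJD3 as it was for COL4A2 and COL5A1. Its part in those results was not tested, and its members did not move alike. In the control, wild-type and mutant arrays KRT19 read 5.55, 8.0 and 7.73, close to the floor in control. It was 5.46-fold and 4.53-fold over control with wild-type and mutant JMJD3. The other KRT19 probe set, 228491_at, was under the floor at 3.91, 3.9 and 3.84. KRT7 read 9.66, 10.8 and 9.16, KRT8 11.76, 11.97 and 10.67, and KRT18 13.4, 13.47 and 12.83. EPCAM was lowest with wild-type JMJD3 at 6.17, 5.83 and 7.07, and CLDN4 read 7.4, 7.47 and 7.59. Of the fibroblast list, PDGFRA, FAP, LUM and POSTN were under the floor in all arrays, and PDGFRB, THY1, DCN and ACTA2 were over it in all. ACTA2, smooth muscle actin, read 6.22, 6.59 and 7.21, and DPT, dermatopontin, 4.29, 4.19 and 6.09, both highest with mutant JMJD3. THY1 was level at 6.11 and DCN read 5.68, 5.86 and 5.68. PDGFRB, a mesenchymal growth factor receptor, read 6.86, 7.46 and 6.23 in the control, wild-type and mutant arrays, the same order as COL4A2 and COL18A1, and its part was likewise not tested. No leukocyte or acinar marker on the array passed the floor. Of 5 endothelial markers PECAM1 did in all arrays and TEK in both JMJD3 arrays. KDM6B probe set 1556067_a_at read 5.53, 6.73 and 6.45 in the same order of arrays, and 1556066_at read 6.02, 6.75 and 6.51. The brightest probe set for the gene read 7.60, 7.66 and 7.65, 41386_i_at read 6.99, 6.99 and 6.88, and 213146_at was under the floor at 5.12 in each. In RNA from a whole culture, a change in how many cells express a gene and a change in its level per cell cannot be told apart.

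Wild-type JMJD3 was set against control to ask which collagen genes differ when wild-type JMJD3 is added. Of 22 measured collagen genes (over the floor in at least 1 of the arrays compared), 15 were higher than control, 5 lower and 2 equal. Among all measured genes 54.4% were higher, 34.2% lower and 11.4% equal, against a collagen share of 68.2% higher that rests on 22 genes and single arrays. The median collagen difference was 0.10 on the log2 scale, against 0.05 for all genes. Of these 22, COL5A1 was the 1 gene higher by 2-fold, where 0.953% of all measured genes were, and none was lower by 2-fold, where 1.31% were. At 1.5-fold, a threshold chosen after the values were seen, COL5A1, COL18A1 and COL4A2 were higher (7.15% of all genes) and COL4A3 was lower (9.08%). Over the 20 genes above the floor in all arrays, 14 were higher and 4 lower, and 54% and 34.5% of all such genes were.

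Mutant JMJD3 against control asks which differ when the mutant is added. Of 24 measured collagen genes, 10 were higher, 7 lower and 7 equal, where 45.9% of all measured genes were higher, 41.2% lower and 12.8% equal. Scaling the arrays to a common median shifts every mutant value by 0.01 against control, which moved the 7 equal genes to the higher side (17 higher and 7 lower, against 58.8% and 40% of all genes). After quantile normalization 10 were higher and 12 lower (42.8% and 54.4% of all genes). Of the 20 over the floor in all arrays 8 were higher (45.2% of all such genes) and 5 lower (41.4%). The median over the measured genes was 0.00, as it was over all genes. No collagen gene was higher by 2-fold (2.98% of all genes) or lower by 2-fold (0.535%), nor did any reach 1.5-fold at its brightest probe set in either direction (9.51% and 3.38%), counting COL8A1 at its bound of 1.11-fold, since its control value lay under the floor. The differences ran from -0.53 for COL7A1 to 0.36 for COL5A1. As 1 array stood for each line, nothing can be said on how far such a narrow range would recur.

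Between the JMJD3 arrays, 14 of 23 measured collagen genes read higher in the wild-type array, 6 lower and 3 equal, where 49.7% of all measured genes were higher, 40.5% lower and 9.77% equal. Of the 20 over the floor in all arrays 13 were higher (49.6% of all such genes) and 4 lower (40.2%). The median over the measured genes was 0.11, against 0.00 over all genes, but 0.00 without shared probe sets and 0.26 at a higher floor (the 60th percentile). None reached 2-fold at its brightest probe set, with genes under the floor in an array counted at their bound, where 2.61% of all genes were higher and 6.2% lower. COL18A1, COL4A2, COL5A1 and COL7A1 were higher by 1.5-fold (11.3% of all genes), and COL4A3 and COL4A4 lower by 1.5-fold (15.9%). Among the 20 collagen genes over the floor in all arrays the wild-type array was highest for 12 (60%), the mutant array for 3 and the control array for 1, with ties in the others. Over all 12156 such genes the wild-type array was highest for 42.1%, so the wild-type array was the most often highest there too. The comparisons share arrays and are not independent of each other.

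**Figure D2:**
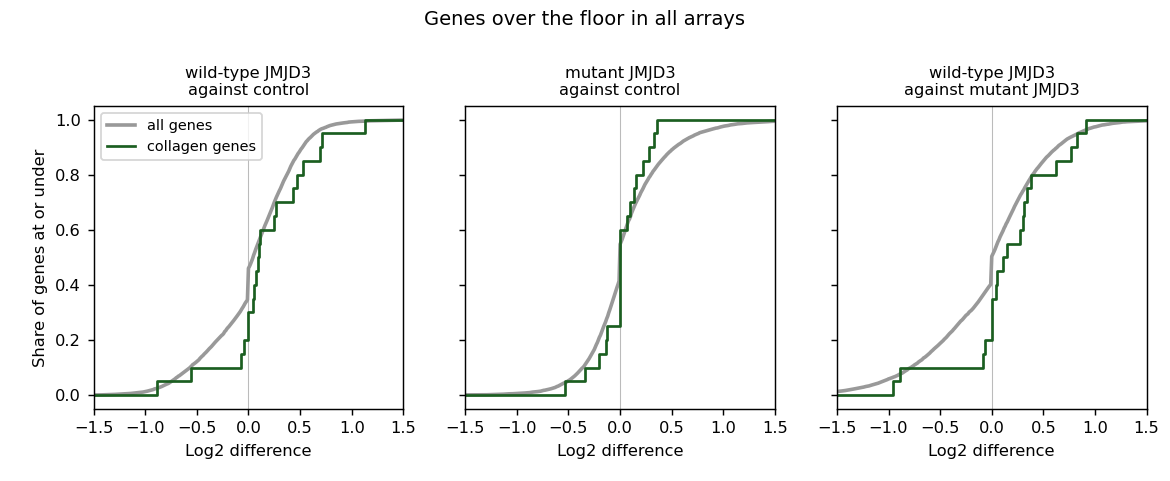
Share of genes (vertical axis) at or under each log2 difference (horizontal axis, shown from -1.5 to 1.5) in the 3 comparisons, for the 20 collagen genes (green steps) and all 12156 genes (grey) over the floor in all arrays. The collagen curve lies right of that of all genes over most of the range where wild-type JMJD3 is compared, and spans -0.53 to 0.36 for mutant against control.

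Within type IV collagen, neighbouring pairs of genes went opposite ways. COL4A1 and COL4A2 encode the chains of the network found under nearly every epithelium and endothelium. At its brighter probe set COL4A2 read 12.03, 12.72 and 11.89 in the control, wild-type and mutant arrays, the order of all sets of values below, so the wild-type array was highest and the others were close. Against control the wild-type array was 1.61-fold higher, and against mutant 1.78-fold. Its other probe set read 8.10, 8.71 and 7.77, in the same order, with wild-type 1.92-fold over mutant. COL4A1 read 10.90, 11.37 and 11.03 at probe set 211980_at, and 8.69, 9.39 and 8.54 at probe set 211981_at. Wild-type JMJD3 was thus 1.39-fold and 1.62-fold over control, while the probe sets disagreed on mutant against control (0.13 and -0.15 on the log2 scale). All 4 probe sets of the pair were highest with wild-type JMJD3, and none of them carried a shared suffix.

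COL4A3 and COL4A4 went the other way. They encode chains that, with COL4A5, build the basement membrane of the kidney glomerulus, lung and a few other sites. COL4A3 read 8.09, 7.20 and 8.16. Wild-type was 1.85-fold under control and 1.95-fold under mutant, the largest difference downward among the collagen genes after flooring. Its other probe set over the floor was dim and read 5.80, 5.67 and 5.81, and the remaining 5 lay under the floor in every array. COL4A4 read 9.48, 8.92 and 9.81 at its brighter probe set and 8.28, 8.0 and 8.53 at the next, with wild-type lowest in both. Wild-type was 1.47-fold under control and 1.85-fold under mutant at the brighter. Read as the median of its probe sets, COL4A4 differed by -0.28 from control and -0.53 from mutant on the log2 scale, and COL4A3 fell under the floor.

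The pair on chromosome X did not follow either pattern. COL4A5 read 10.60, 10.67 and 10.75, a range of 0.15. COL4A6, its neighbour and a chain of smooth muscle and epithelial basement membranes, was at 5.30 in control and wild-type and 5.72 with mutant JMJD3. It was therefore over the floor with the mutant alone, at least 1.18-fold higher there. By RefSeq their nearest starts are 379 bases apart.

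**Figure D3:**
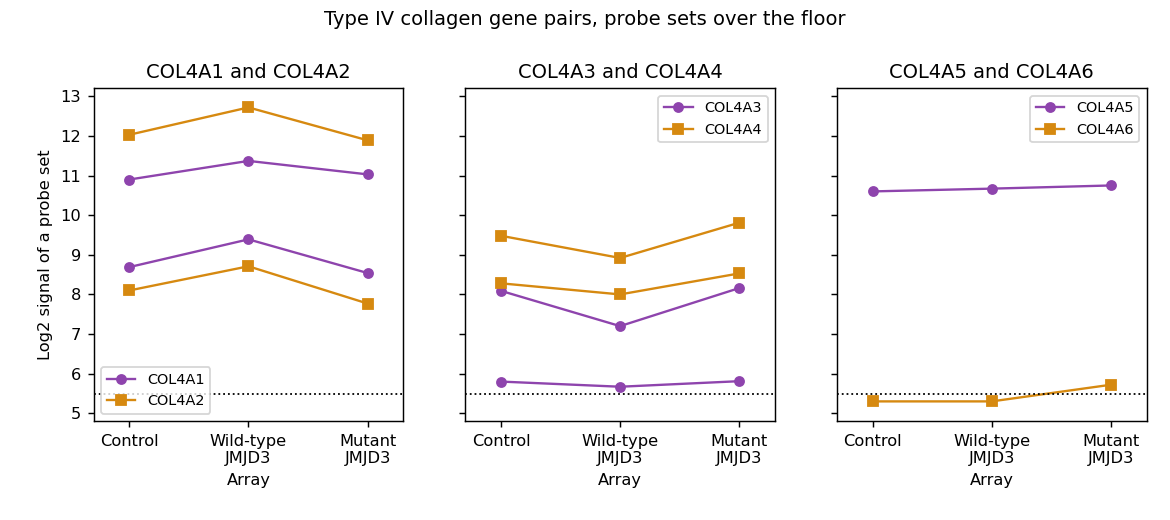
Log2 signal (vertical axis) in the control, wild-type and mutant JMJD3 arrays for each probe set over the floor of the 6 type IV collagen genes, in panels by neighbouring pair, with the floor dotted and lines joining values of a probe set. All 4 probe sets of COL4A1 and COL4A2 peak with wild-type JMJD3, and all 4 of COL4A3 and COL4A4 dip there, by between 0.13 and 0.89 against control.

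Among the 11 fibrillar genes, 5 were measured (COL1A1, COL5A1, COL5A3, COL11A2 and COL27A1). COL5A1, a chain of the type V collagen that nucleates and limits the width of type I fibrils, read 8.07, 9.20 and 8.43. Its other probe sets read 7.68, 8.46 and 8.36, and 6.54, 7.20 and 6.86. All 3 were lowest in control and highest with wild-type JMJD3. Wild-type was 2.19-fold over control at the brightest, which is a shared probe set, and 1.72-fold and 1.58-fold at the others, so without shared probe sets no collagen gene passed 2-fold from control. Mutant was 1.28-fold, 1.60-fold and 1.25-fold over control, so the gap between the JMJD3 arrays ran from 0.10 to 0.77 on the log2 scale across probe sets. Its partner COL5A2 was under the floor in every array. COL5A3 read 5.86 in each at its brightest probe set, and 5.80, 5.91 and 5.80 at its other, shared one.

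COL1A1, the main chain of type I collagen, read 10.16, 10.69 and 10.38 at its brightest probe set, 1.44-fold and 1.16-fold over control in the wild-type and mutant arrays. Its 5 probe sets did not behave alike, since 2 of them (7.24 and 5.86) were identical across the arrays. Another (202310_s_at) read 6.63, 6.91 and 6.86, and the last crossed the floor with wild-type JMJD3. All 5 are shared probe sets. COL27A1, a fibrillar chain of cartilage and developing tissue, read 6.20, 6.47 and 6.20, 1.21-fold higher in the wild-type array, though its other probe set read 6.07, 6.20 and 6.21. COL11A2, another cartilage chain, read 6.47, 6.43 and 6.13, and its other probe set was level at 5.88.

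The multiplexins COL15A1 and COL18A1 lie at the junction of the basement membrane and stroma, and COL18A1 gives rise to the angiogenesis inhibitor endostatin. COL18A1 read 8.51, 9.22 and 8.31. The second probe set read 7.96, 8.59 and 7.82. Wild-type was highest in both, 1.64-fold and 1.55-fold over control, and 1.88-fold and 1.71-fold over mutant, while mutant was 1.15-fold and 1.10-fold under control. Both are shared probe sets. COL15A1 was level at 10.83, 10.93 and 10.93.

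COL7A1 forms the anchoring fibrils that tie epithelium to stroma, and it differed by the mutant array. It read 9.43, 9.52 and 8.90, and 9.04, 9.10 and 8.56 at the other probe set. Mutant was lowest in both, 1.44-fold and 1.39-fold under control, and wild-type was within 0.09 of control. COL26A1 read 6.23, 6.16 and 6.23, and COL28A1 was under the floor.

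Of the 10 FACIT genes, whose chains sit on the surface of fibrils, 4 were measured and none was lower with wild-type JMJD3 than in control. COL12A1, a regulator of fibril spacing in tissue under tension, read 8.86, 9.11 and 8.73 at its brightest probe set and 7.74, 8.31 and 7.31 at 231766_s_at. Both were highest with wild-type and lowest with mutant JMJD3. The gap between the JMJD3 arrays was 0.38 at the former and 1.0, exactly 2-fold, at the latter. COL16A1 read 5.60, 6.05 and 5.26, in the wild-type array 1.37-fold over control and at least 1.48-fold over mutant. COL9A3, a cartilage chain, stayed between 9.20 and 9.25, and COL9A2 at 5.51.

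In type VI collagen, a microfibril that links cells to the matrix, COL6A1 and COL6A2 were measured and COL6A3, their partner chain, was at 4.67 to 4.69. COL6A1 read 7.99, 8.42 and 8.27, 1.35-fold and 1.21-fold over control in the wild-type and mutant arrays. At 212938_at, with no shared suffix, it read 6.03, 6.29 and 6.08. COL6A2 lay at the floor. The transmembrane collagen COL13A1, found at cell adhesions, read 6.42 in the wild-type array, 1.08-fold over the others (6.31). Among short-chain collagens COL8A1, a chain of vessel and Descemet membrane networks, had the widest range of all collagen genes before flooring. It read 4.19, 3.59 and 5.63, over the floor with mutant alone, which left a bound of at least 1.11-fold over control and wild-type. COL10A1, the growth plate chain, was near the floor at 5.52, 5.37 and 5.23.

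Other probe sets mostly went the way of the brightest. In wild-type against control 15 of 20 other measured probe sets had the same direction, 1 the opposite and 4 no difference. In mutant against control these were 11, 2 and 3 of 16, and between the JMJD3 arrays 14, 2 and 4 of 20. Probe sets of a gene read the same RNA and are not replicates.

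**Figure D4:**
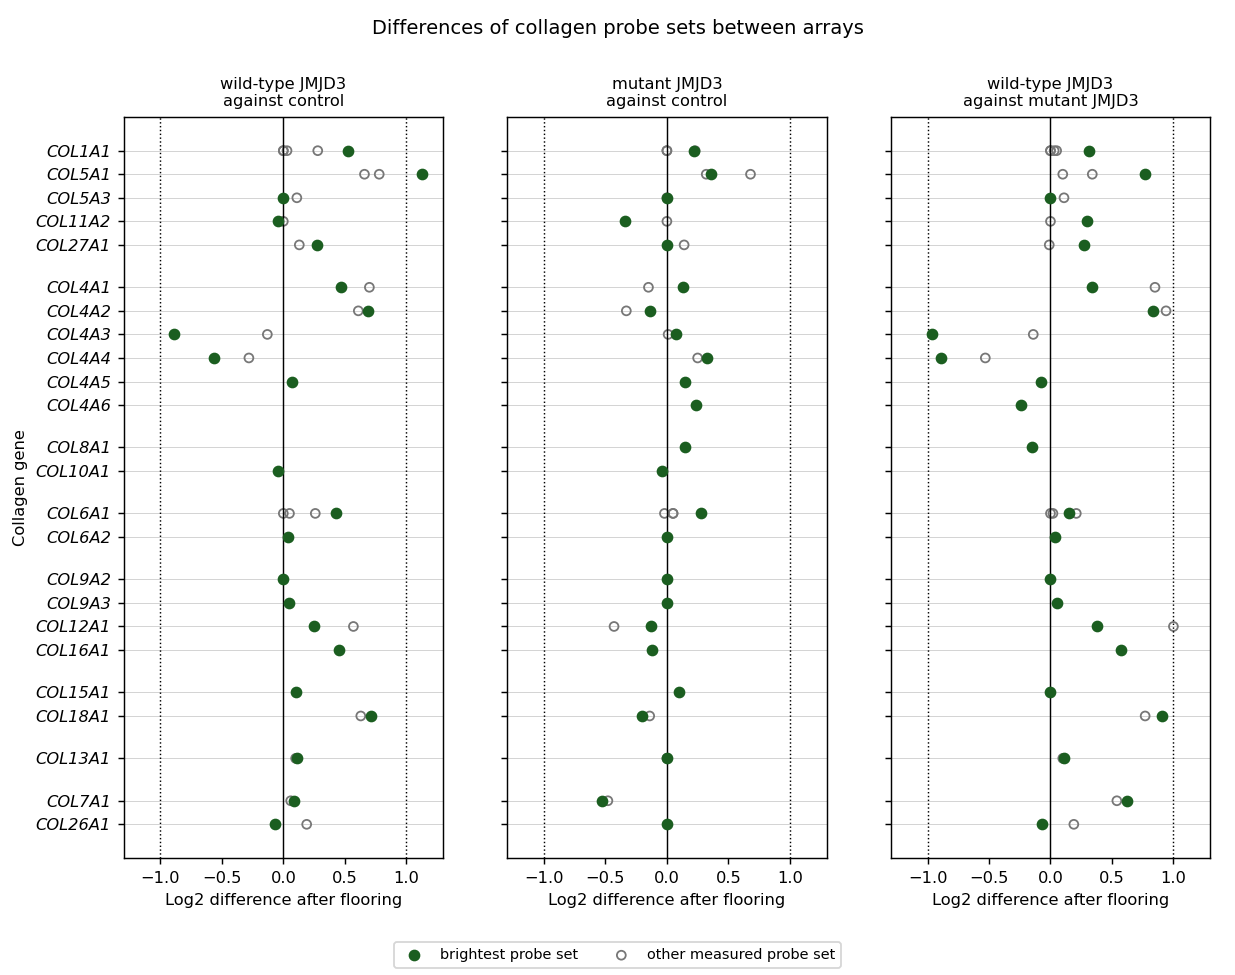
Log2 difference after flooring (horizontal axis) of every measured probe set of the 24 collagen genes in the 3 comparisons, with the brightest probe set filled, the others open, and 2-fold as dotted lines. COL5A1 passes 2-fold in wild-type against control and a second COL12A1 probe set reaches it in wild-type against mutant, while no point does in mutant against control, where COL8A1 is drawn at its bound.

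Collagen chains are hydroxylated, glycosylated and folded in the endoplasmic reticulum before export. All 19 genes of this list on the array were measured. With wild-type JMJD3 14 were higher than control and 5 lower, with a median of 0.25, where 54.4% of all measured genes were higher and 34.2% lower. With mutant JMJD3 5 were higher and 14 lower, with a median of -0.26, where 45.9% of all genes were higher and 41.2% lower. Between the JMJD3 arrays 15 were higher with wild-type, 4 of them by 2-fold, and 4 lower, 3 by 2-fold, where 49.7% of all genes were higher, 2.61% by 2-fold, and 40.5% lower, 6.2% by 2-fold. Their median was 0.45, against 0.00 over all genes.

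SERPINH1, the collagen-specific chaperone HSP47, read 8.69, 9.58 and 7.82. It was 1.85-fold over control with wild-type and 1.83-fold under it with mutant, a gap of 3.39-fold, read by a single, shared probe set. P3H2, a prolyl 3-hydroxylase with a preference for type IV collagen, read 10.16, 11.01 and 9.64, a gap of 2.58-fold between the JMJD3 arrays. That probe set is shared, and the other read 6.09, 6.23 and 6.07. P3H1 (8.13, 8.79 and 7.73 at a single, shared probe set) and the prolyl 4-hydroxylase subunit P4HA2 (9.80, 10.20 and 9.13) followed the same order, with gaps of 2.08-fold and 2.10-fold, though at its other measured probe set P4HA2 read 6.92 in both JMJD3 arrays. PPIB, a prolyl isomerase of the P3H1 complex, and P4HB, the shared subunit of prolyl 4-hydroxylase, did so by 1.58-fold and 1.54-fold.

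PLOD2, which hydroxylates lysines of the collagen telopeptides, ran against that order. It read 9.91, 8.70 and 9.87, 2.31-fold under control with wild-type, and 8.50, 7.05 and 8.28 at its other probe set, both of them shared. The related PLOD1 and PLOD3, which act on helical lysines, instead lay 1.99-fold and 1.55-fold higher in the wild-type than in the mutant array. FKBP14, another prolyl isomerase, read 8.94, 7.84 and 9.60 and lay 3.39-fold lower in the wild-type than in the mutant array, in the same direction in its 3 probe sets. TMEM38B, an ion channel of the endoplasmic reticulum needed for collagen modification, read 8.84, 8.30 and 9.41 at its brightest probe set, 2.16-fold lower with wild-type than mutant. Its other probe sets, both shared, read 8.31, 8.16 and 9.09, and 7.45, 7.44 and 7.63. P4HA3 read 7.41, 7.97 and 8.72, 2.48-fold over control with mutant JMJD3.

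**Figure D5:**
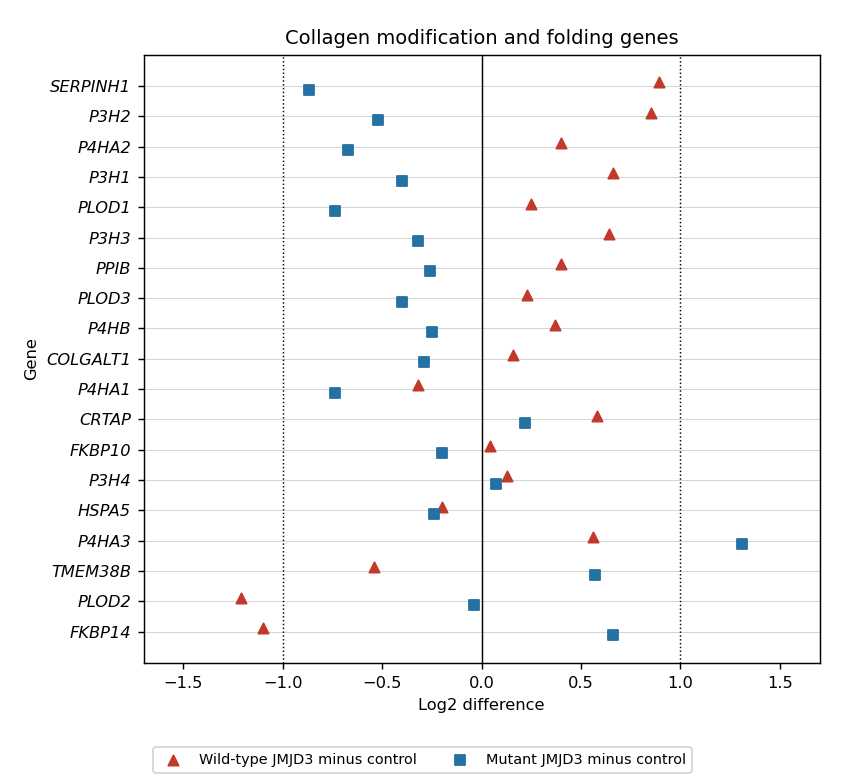
Log2 difference from control (horizontal axis) of 19 collagen modification and folding genes with wild-type (triangles) and mutant JMJD3 (squares), sorted by the gap between them, with 2-fold as dotted lines and 1 array per line. SERPINH1, P3H2, P4HA2 and P3H1 lie above control with wild-type and below it with mutant, and FKBP14 and TMEM38B the other way.

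The remaining lists each held fewer genes past 2-fold. Of 13 measured genes for procollagen export and trimming, none differed by 2-fold in any comparison at its brightest probe set. The largest gap was that of the coat protein gene SEC13 (11.82, 12.23 and 11.37). Without shared probe sets 1 of 9 was lower by 2-fold in the wild-type than in the mutant array. Among 4 measured crosslinking enzymes LOX was 2.28-fold under control in the mutant array (8.97, 8.07 and 7.78 at its brightest probe set and 6.82, 6.96 and 5.84 at the next), and LOXL1 was 2.11-fold lower in the wild-type than in the mutant array. LOXL2, which also crosslinks type IV collagen, read 9.99, 10.42 and 9.64, in the order of COL4A2. Of 7 measured collagen receptors none differed by 2-fold. The integrin chains ITGA1 (7.58, 7.06 and 7.95) and ITGA2 (7.82, 7.89 and 8.74) were 1.85-fold and 1.80-fold lower in the wild-type than in the mutant array. Of 7 measured genes of collagen degradation and its inhibitors none differed by 2-fold at its brightest probe set. TIMP3, a matrix-bound protease inhibitor, was 1.82-fold and 1.95-fold over control with wild-type and mutant. With the median over probe sets 1 of 6 was higher by 2-fold in mutant against control. The interstitial collagenases MMP1, MMP8 and MMP13 were under the floor throughout. Among 6 measured fibril partners FN1, fibronectin, was 5.54-fold over control with mutant JMJD3, and THBS1, thrombospondin, was 2.39-fold higher in the wild-type than in the mutant array (9.65, 10.35 and 9.09). The LOX, FN1 and THBS1 values come from shared probe sets. LOX has no other kind, and the unshared probe sets of FN1 lay under the floor, so neither can be measured without them. FN1 read 7.58, 8.31 and 10.05 at its brightest probe set. Other shared ones over the floor read 6.93, 8.11 and 10.04, then 7.12, 8.06 and 9.68, and 7.29, 8.30 and 10.09. At its unshared probe set over the floor THBS1 read 6.84, 6.80 and 5.90, short of 2-fold between the JMJD3 arrays. Across all 56 measured related genes, 0 were higher and 2 lower by 2-fold in wild-type against control (0.953% and 1.31% of all genes), 2 higher and 1 lower in mutant against control (2.98% and 0.535%), and 5 higher and 5 lower between the JMJD3 arrays (2.61% and 6.2%).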

How the data were processed

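The deposited table holds log2 signals of 3 arrays, written to 2 decimals from 2.42 to 14.94, and no step was taken to normalize it again. Per the submitters' processing notes the authors used MAS5, with no settings or version, and how the arrays were normalized to each other was not given in the sources used here. Array medians were 5.50, 5.48 and 5.49 for control, wild-type and mutant. Probe sets were named by the platform annotation, and 0 of 112 collagen symbols needed updating against RefSeq (GRCh38.p14). Signals were floored at 5.48 before differences were taken, and a fold is 2 raised to the difference. A fold with either value at the floor or lower is a bound.

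The named genes are every collagen gene over the floor, the others by symbol, and up to 4 members of each related list. A few further list members were named after their values were seen. Members and lists were chosen with earlier results of these data known. Tried as alternatives were leaving out shared probe sets, taking the median over probe sets, adding an offset and no floor, moving the floor to the 40th or 60th percentile, quantile normalization, and scaling to a common median. Added after seeing the data were a 1.5-fold threshold and genes over the floor in all arrays. The calculation was tested on simulated data. Calculations used pandas 2.3.3 and numpy 2.4.6 under Python 3.11.15, and plots matplotlib 3.10.9.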

Additional observations from a re-analysis of the deposited data

How the results depend on the processing

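No paired analysis was possible because each group has 1 array. COL5A1 was the 1 collagen gene past 2-fold in wild-type against control. With the median over probe sets, and without shared probe sets, it was at 0.78 on the log2 scale and the count was 0. The median collagen difference between the JMJD3 arrays went from 0.11 to 0.00 without shared probe sets and to 0.26 when the floor was moved to the 60th percentile. Among related genes, leaving out shared probe sets left 1 gene higher in mutant against control, 0 lower there and 1 lower in wild-type against control. Between the JMJD3 arrays it left 1 higher, with 2 modification and folding genes, 1 export gene and 1 crosslinking gene lower. FN1 and LOX had no unshared probe set over the floor, so those counts could not include them. The median over probe sets gave 0 lower in mutant against control and 1 higher in wild-type against control, and the offset left 1 lower in the latter. Some list medians turned sign, and their causes were not tested. Without shared probe sets those of crosslinking, over the 2 genes still measured, were 0.11 (mutant against control) and -0.43 (between the JMJD3 arrays). Those of degradation, over the 4 still measured, were -0.01 and 0.14. At a 60th percentile floor that of degradation between the JMJD3 arrays was 0.02. With the median over probe sets those of receptors and of fibril partners between the JMJD3 arrays were 0.08 and -0.06. Of 424 values of single collagen genes under the alternatives, 416 had the sign of the reported value or a reported value of 0, 5 had the opposite sign and 3 were 0. The 5 were COL26A1 (3 values), COL11A2 in wild-type against control and COL4A1 in mutant against control. Moving the floor or adding an offset cannot reverse a sign, and a reported value of 0 could not disagree. The count of 416 was therefore partly fixed in advance and does not measure how stable the signs are. Of 252 counts by 2-fold of single related lists under the alternatives, 22 differed from the reported count. With a single array per line, no setting measures the spread between cultures, and signals near the floor limit what can be compared for dim genes.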
